A study of Mus musculus with 6 samples.

Results

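NMDA receptors are glutamate-gated channels whose subunits are encoded by 7 genes in the mouse, Grin1, Grin2a, Grin2b, Grin2c, Grin2d, Grin3a and Grin3b. All 7 were found, by an exact match of the gene symbol, among the 22544 genes of a table that compares GFP-labelled upper-layer cortical neurons of Swiss Webster mice at postnatal day 5 (P5) with the same kind of cells at postnatal day 3 (P3). The cells had been sorted from cortex by fluorescence, and there were 3 biological replicates at P5 and 3 at P3. Markers of astrocytes were also high in these libraries at both ages, as given at the end. How the neurons received GFP, and whether animals were pooled within a replicate, is not given in the sources used here. The series is concerned with how young neurons come to be permanently post-mitotic. The authors' deposited table gives 1 value per age, in FPKM (sequenced fragments divided by transcript length and by library size), with replicates already combined, so every level below is the authors' pooled value and has no error of its own. Levels of different genes are set side by side only on this per-length scale.

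A functional NMDA receptor contains the glycine-binding subunit GluN1, encoded by Grin1, together with glutamate-binding GluN2 subunits, and opening requires agonist, co-agonist and depolarisation that relieves block by magnesium. The GluN2 subunit sets the kinetics of the channel. In the rodent forebrain GluN2B prevails around birth and GluN2A is added over the following postnatal weeks, a change known as the GluN2B to GluN2A switch. GluN3 subunits bind glycine and lower calcium permeability and magnesium block, and GluN3A is known as a subunit of juvenile brain.

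Start-site sequences of Grin1, Grin2c, Grin2d and Grin3b were found in a RefSeq table on build GRCm38.p6 (4 of the 7 genes), and those of Grin1 and Grin2c are shown because they hold the GC box that transcription factors of the Sp family bind, in a gene that was detected at both ages and in one that was listed at 0 at P3. Each runs from 250 bases before to 50 bases after the annotated start of the gene, 5′ to 3′ on the minus strand, and capitals mark GGGCGG, which was searched on both strands. Grin1 lies at chr2:25319138-25319437 and Grin2c at chr11:115267194-115267493.
Grin1: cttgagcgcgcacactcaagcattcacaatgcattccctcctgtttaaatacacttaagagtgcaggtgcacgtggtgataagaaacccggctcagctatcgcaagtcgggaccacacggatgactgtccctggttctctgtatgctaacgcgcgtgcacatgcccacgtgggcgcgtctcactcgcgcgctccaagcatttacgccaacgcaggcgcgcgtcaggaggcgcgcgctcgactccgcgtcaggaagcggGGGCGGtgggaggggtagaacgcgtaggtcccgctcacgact
Grin2c: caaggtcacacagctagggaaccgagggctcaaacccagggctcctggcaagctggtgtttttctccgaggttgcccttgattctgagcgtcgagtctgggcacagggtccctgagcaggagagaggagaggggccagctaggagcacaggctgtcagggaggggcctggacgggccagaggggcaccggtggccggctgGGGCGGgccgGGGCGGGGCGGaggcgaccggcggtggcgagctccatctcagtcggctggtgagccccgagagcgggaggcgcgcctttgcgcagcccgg

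Grin1 had 1 match and Grin2c had 3, of which the last pair shares a base. Grin2d and Grin3b had 0 matches in this window. The hexamer was present in 35.7% of the 32851 start-site sequences of the same length in that table. GC content was 60.7% for Grin1, 70.0% for Grin2c, 56.0% for Grin2d and 48.3% for Grin3b, against a median of 52.7% over the table. The match is a description of these letters, and the gene with the most matches, Grin2c, was the one with the lowest level at P5.

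Grin2b dominated the family at both ages. It had 114 FPKM at P5 and 111 FPKM at P3, and no other subunit gene exceeded 3.20 FPKM at either age. Grin2b made up 94.7% of the summed FPKM of the 7 genes at P5 and 98.7% at P3. Its level ranked 400th of 22544 genes at P5 and 447th at P3. The 7 genes summed to 121 FPKM at P5 and 112 FPKM at P3, and the other 6 genes without Grin2b summed to 6.47 FPKM at P5 and 1.43 FPKM at P3.

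**Figure D1:**
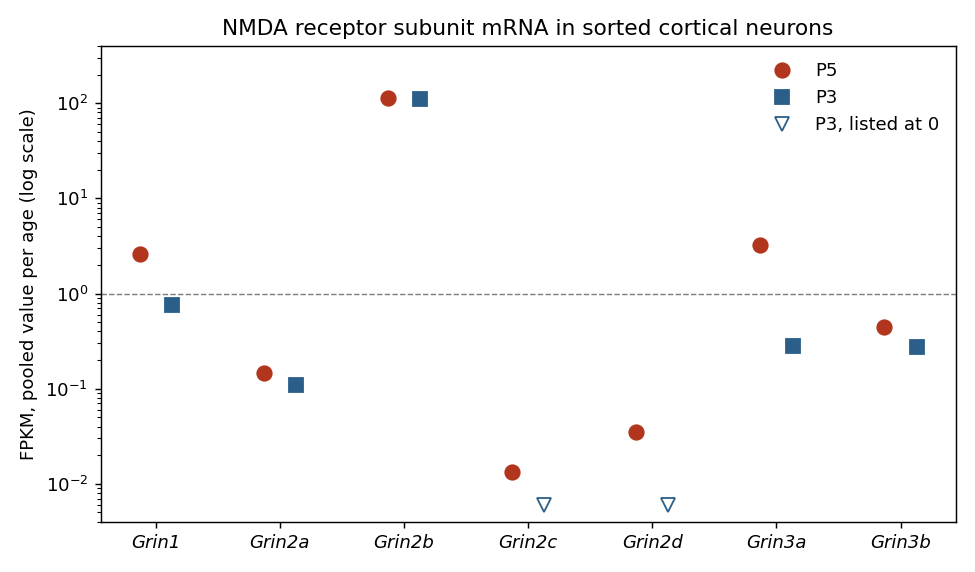
Level of each NMDA receptor subunit gene in FPKM on a log scale, as the authors' pooled value for P5 (circles) and for P3 (squares); open triangles at the lower edge mark genes listed at 0 at P3, and the dashed line marks 1 FPKM. Grin2b sits above 100 FPKM at both ages, while Grin1 and Grin3a lie above 1 FPKM at P5 and below it at P3, and Grin2a, Grin2c, Grin2d and Grin3b lie below 1 FPKM at both ages.

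In order of level, Grin2b was followed at P5 by Grin3a (3.20 FPKM), Grin1 (2.63 FPKM), Grin3b (0.441 FPKM), Grin2a (0.145 FPKM), Grin2d (0.0352 FPKM) and Grin2c (0.0134 FPKM). At P3 the order after Grin2b was Grin1 (0.766 FPKM), Grin3a (0.283 FPKM), Grin3b (0.274 FPKM) and Grin2a (0.110 FPKM), with Grin2c and Grin2d listed at 0. An FPKM of exactly 0 in such a table can be a failed estimate, so no fold is given for these last genes. Because no level carries its own error, whether neighbours in this order differ beyond their spread cannot be told from the table, and the close pairs are Grin3a and Grin1 at P5 and Grin3a and Grin3b at P3.

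No NMDA receptor subunit gene differed between P5 and P3 by the authors' test. Cuffdiff had tested Grin1, Grin2b and Grin3a, and called 0 of these 3 at q = 0.05, against 0% of all 12865 genes tested. At an unadjusted p under 0.05 it was again 0 of 3, against 0.77% of all genes tested, or 99 genes. Grin2a, Grin2c, Grin2d and Grin3b carry the status NOTEST, which the program gives to genes with too little data. Grin1 and Grin3a reached 1 FPKM through their P5 values alone, so their higher P5 values are given below as descriptions.

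The error of each change was recovered from the table as the size of the log2 ratio of P5 over P3 divided by the test statistic, and is called the standard error (SE) below. With correct errors and no change in any gene, a share of 0.05 of genes would have p under 0.05. The share seen was 0.77%, so these SEs are probably too wide over the table as a whole. The 95% intervals below are therefore nominal and probably too wide as well. The obligatory subunit gene Grin1 (mm9 chromosome 2, 25145431 to 25174683) had 2.63 FPKM at P5 and 0.766 FPKM at P3. Its log2 ratio was 1.78 with an SE of 3.20, and its 95% interval ran from -4.49 to 8.05 (p = 0.58 in the authors' deposited table). With 1 FPKM added at both ages the ratio was 1.04, and relative to pan-neuronal marker genes it was 0.59. The locus deposited for Grin1 also holds Lrrc26 and E130003G02Rik, both listed at 0 at both ages. Among 1653 other tested genes within 0.5 log2 units of the mean FPKM of Grin1, the median log2 ratio was 0.46. Of them, 351 genes, or 21.2%, had a ratio above that of Grin1.

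Grin2b (mm9 chromosome 6, 135679823 to 136123529), which encodes the GluN2 subunit of immature synapses, had 114 FPKM at P5 and 111 FPKM at P3, which is a log2 ratio of 0.05 with an SE of 1.69. Taken at its nominal width, the 95% interval from -3.27 to 3.37 still allows changes of several-fold in either direction (p = 0.98 in the authors' deposited table). No other gene of the table overlaps its locus. Its SE was high for its level. Of 375 other tested genes within 0.5 log2 units of its mean FPKM, 356 had a smaller SE, with a median of 0.98.

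The GluN2A gene Grin2a (mm9 chromosome 16, 9577803 to 9992626) had 0.145 FPKM at P5 and 0.110 FPKM at P3, so both ages lay far below the level of Grin2b. Its log2 ratio was 0.41 with an SE of 3.37. None of the other 626 genes within 0.5 log2 units of its mean FPKM had been tested (0 of 626), so at this level a difference was not detectable by the authors' test.

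The composition of the GluN2 genes was therefore almost wholly Grin2b at both ages. Grin2a made up 0.127% of the sum of Grin2a and Grin2b at P5 and 0.0990% at P3. The FPKM of Grin2b was 788 times that of Grin2a at P5 and 1009 times at P3. The log2 ratio of Grin2a exceeded that of Grin2b by 0.36, with an SE of 3.77 if the errors of these genes are taken as independent, and a 95% interval from -7.04 to 7.75. A shift in this balance from P3 to P5 was thus neither seen beyond the error nor bounded tightly by it. Small pseudocounts move the Grin2a share. With 0.1 FPKM added to each gene it was 0.214% at P5 and 0.189% at P3, and with 1 FPKM added it was 0.982% at P5 and 0.985% at P3, so that the order of the ages turned round.

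The remaining GluN2 genes were near or at 0. Grin2c (mm9 chromosome 11, 115110483 to 115128557), known chiefly for its expression in the cerebellum, had 0.0134 FPKM at P5 and was listed at 0 at P3. Grin2d (mm9 chromosome 7, 53087853 to 53122051), in the cortex known from interneurons, had 0.0352 FPKM at P5 and was listed at 0 at P3. Of the summed FPKM of the 4 GluN2 genes, Grin2b alone held 99.8% at P5 and 99.9% at P3.

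Grin3a showed the largest log2 ratio of the 5 subunit genes that have one. Grin3a (mm9 chromosome 4, 49678098 to 49857953) had 3.20 FPKM at P5 and 0.283 FPKM at P3, a log2 ratio of 3.50 with an SE of 2.67. The 95% interval from -1.73 to 8.73 includes 0 (p = 0.19 in the authors' deposited table). With 1 FPKM added at both ages the ratio was 1.71, and relative to pan-neuronal marker genes it was 2.31. Its locus also holds the calcineurin subunit gene Ppp3r2, at 0.412 FPKM at P5 and listed at 0 at P3. Among 1669 other tested genes within 0.5 log2 units of the mean FPKM of Grin3a, the median log2 ratio was 0.47. Of them, 93 genes, or 5.6%, had a ratio above that of Grin3a.

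Grin3b (mm9 chromosome 10, 79433469 to 79447075), best known from motor neurons, had 0.441 FPKM at P5 and 0.274 FPKM at P3, a log2 ratio of 0.69 with an SE of 2.98. It was not tested, although 704 of 966 genes at a like level were. Its locus also holds ORF61, at 0.560 FPKM at P5 and listed at 0 at P3. Grin3a and Grin3b had nearly equal levels at P3, and at P5 the level of Grin3a was 7.25 times that of Grin3b. The ratio of Grin3a exceeded that of Grin3b by 2.81 log2 units, with an SE of 4.0 and a 95% interval from -5.02 to 10.65, which includes 0.

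**Figure D2:**
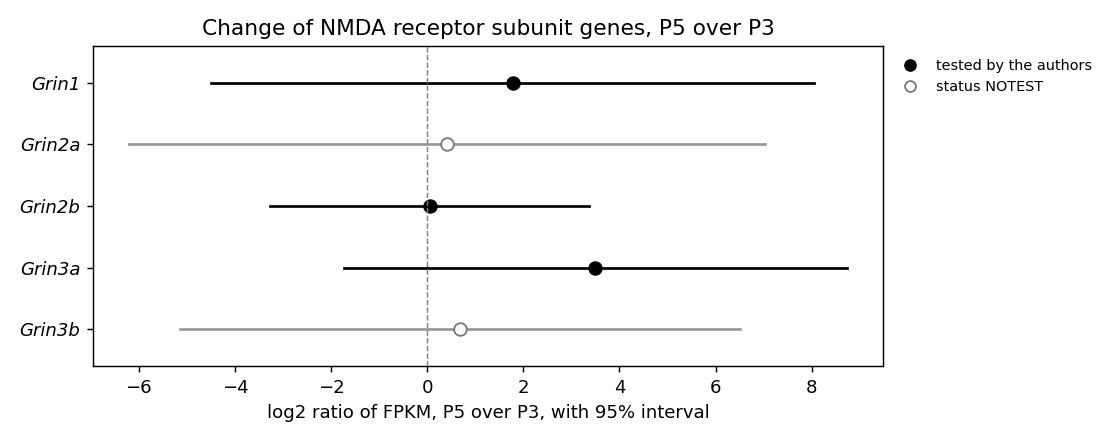
Log2 ratio of FPKM, P5 over P3, for the 5 subunit genes with FPKM above 0 at both ages, with 95% intervals from the SE that the deposited test statistic implies; filled points were tested by the authors and open points carry the status NOTEST. Every interval includes 0, the narrowest being that of Grin2b from -3.27 to 3.37.

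Levels of Grin1 and Grin2b were far apart although GluN1 is part of every NMDA receptor. The FPKM of Grin2b was 43.5 times that of Grin1 at P5 and 144 times at P3. The log2 ratio of Grin1 exceeded that of Grin2b by 1.73, with an SE of 3.62 and an interval from -5.37 to 8.83. To reach an unadjusted p of 0.05 with these errors, a log2 ratio of 3.32 would have been needed for Grin2b, 5.23 for Grin3a and 6.27 for Grin1. Transcript models and counts were not part of the table, so how reads were assigned within these genes was not tested.

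The subunit genes of other ionotropic glutamate receptors gave a family-by-family comparison. AMPA receptors carry fast excitatory current, and kainate receptors modulate release and excitability. All 4 AMPA and 5 kainate genes had been tested, against 3 of 7 NMDA genes. Of these 9, 0 passed the test at q = 0.05, against 0% of all 12865 genes tested. FPKM was higher at P5 in 2 of 4 AMPA genes (median log2 ratio -0.05) and in 3 of 5 kainate genes (0.97, or 0.21 without Grik4, which stayed under 1 FPKM). NMDA genes summed to 1.53 times the FPKM of AMPA genes at P5 and to 0.986 times at P3. The largest member took 94.7% of its family at P5 and 98.7% at P3 for Grin2b, 61.0% at P5 and 78.8% at P3 for the AMPA gene Gria2, and 38.9% at P5 and 64.3% at P3 for the kainate gene Grik2.

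Gria2, whose edited subunit makes AMPA receptors impermeable to calcium, had 48.1 FPKM at P5 and 89.5 FPKM at P3, so that the level of Grin2b was 2.38 times that of Gria2 at P5 and 1.23 times at P3. The log2 ratio of Grin2b exceeded that of Gria2 by 0.95 with an SE of 2.05 and a 95% interval from -3.07 to 4.96, which includes 0. Gria1 had 14.0 FPKM at P5 and 10.2 FPKM at P3, and Gria3 had 12.3 FPKM at P5 and 7.32 FPKM at P3. Of the kainate genes, Grik1 had 3.52 FPKM at P5 and 0.826 FPKM at P3, Grik2 had 4.76 FPKM at P5 and 6.98 FPKM at P3, and Grik3 had 1.74 FPKM at P5 and 0.886 FPKM at P3. Grik1 and Grik3 reached 1 FPKM through their P5 values alone, so their higher P5 values are descriptions too.

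**Figure D3:**
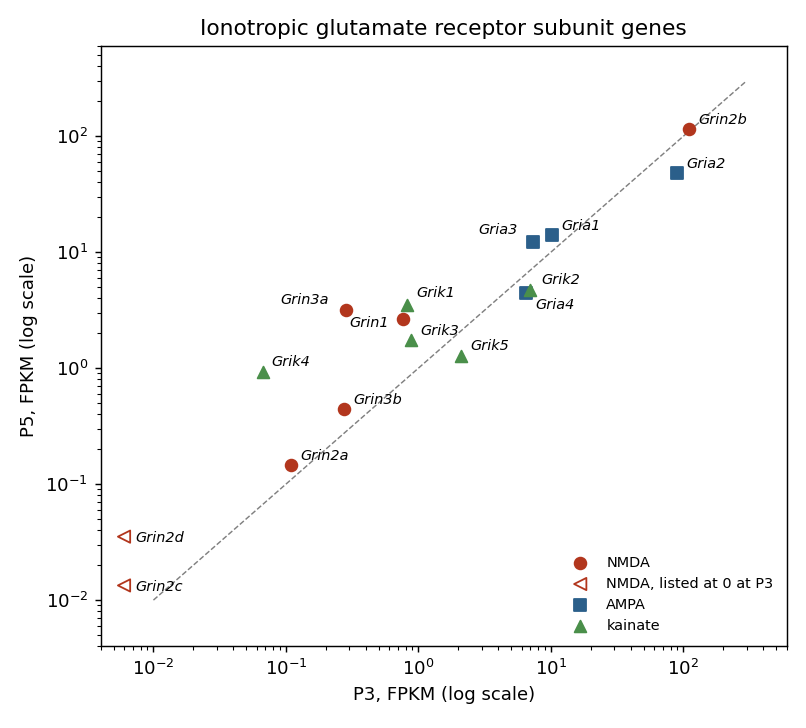
FPKM at P5 (vertical, log scale) against FPKM at P3 (horizontal, log scale) for the 16 subunit genes of NMDA, AMPA and kainate receptors; open triangles at the left edge are listed at 0 at P3, and the dashed line marks equal levels. Grin2b and Gria2 stand apart at the upper right, and Grin2a, Grin2c and Grin2d are the 3 genes with the lowest P5 levels.

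Genes that act with the NMDA receptor were followed in 7 further lists, with 97 genes of the table tested. None of them passed the authors' Cuffdiff test at q = 0.05, against 0% of all 12865 genes tested. At an unadjusted p under 0.05 it was again 0, against 0.77% of all genes tested. With shares this low over all genes, 0 calls among 97 do not set these lists apart. Over all 12313 tested genes with FPKM above 0 at both ages the median log2 ratio was 0.13, and 55.6% had higher FPKM at P5. That share leaves out tested genes listed at 0 at 1 age, while the counts below include Fbxo2 and Arc, both listed at 0 at P3. The medians below are to be read against the median of 0.13. All of them, 0.67 at most, lie below the median of 1.19 of the pan-neuronal marker genes described at the end. Dlg4, Nefl, Fbxo2, Crtc1, Slc6a9 and Slc17a7, named below for their low p, reached 1 FPKM through their P5 values alone. Their higher P5 values are therefore given as descriptions.

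Anchoring and associated proteins hold the receptor at the postsynaptic density. FPKM was higher at P5 in 11 of the 17 tested and lower in 6, and the median log2 ratio was 0.36. The lowest p belonged to Dlg4, which encodes the scaffold PSD-95, at 1.72 FPKM at P5 and 0.0596 FPKM at P3, a log2 ratio of 4.85 with an SE of 2.69 (p = 0.071 in the authors' deposited table). Nefl, a neurofilament gene whose product binds GluN1, had 9.33 FPKM at P5 and 0.719 FPKM at P3. The scaffold-associated gene Dlgap4 had 40.7 FPKM at P5 and 44.5 FPKM at P3, and Ywhaz, a 14-3-3 adaptor, had 1055 FPKM at P5 and 1568 FPKM at P3. The other Dlg genes of the list were singled out after their values were seen, and they differed in direction. Dlg2, which encodes PSD-93, had 7.55 FPKM at P5 and 6.02 FPKM at P3. Dlg3, which encodes SAP102, an early partner of GluN2B, had 7.47 FPKM at P5 and 15.5 FPKM at P3. Dlg1, which encodes SAP97, had 2.58 FPKM at P5 and 8.71 FPKM at P3.

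Genes of receptor traffic and turnover had higher FPKM at P5 in 11 of 13 tested, lower in 2, with a median log2 ratio of 0.35. Cask, a scaffold of the complex that carries GluN2B with the motor Kif17, had 191 FPKM at P5 and 154 FPKM at P3. The ubiquitin ligase gene Nedd4 had 96.2 FPKM at P5 and 112 FPKM at P3. The adaptor Gipc1, which binds GluN2B, had 26.4 FPKM at P5 and 9.16 FPKM at P3. Fbxo2, an F-box protein that recognises GluN1, had 2.62 FPKM at P5 and was listed at 0 at P3.

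Kinases and phosphatases that act on the receptor had higher FPKM at P5 in 13 of 19 tested, with a median of 0.37. The calcineurin catalytic gene Ppp3ca had 145 FPKM at P5 and 149 FPKM at P3. Csnk2b, the regulatory subunit of the kinase that phosphorylates the GluN2B tail, had 78.2 FPKM at P5 and 46.7 FPKM at P3. The protein kinase C gene Prkcb had 27.6 FPKM at P5 and 11.3 FPKM at P3, and the tyrosine kinase gene Ptk2b had 6.27 FPKM at P5 and 1.11 FPKM at P3.

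Downstream calcium signalling had 9 of 12 tested genes higher at P5, with a median of 0.67. Calmodulin, which binds the GluN1 tail, was abundant, with Calm2 at 227 FPKM at P5 and 188 FPKM at P3. The kinase gene Camk4 had 18.1 FPKM at P5 and 7.59 FPKM at P3, and the CREB co-activator gene Crtc1 had 2.85 FPKM at P5 and 0.623 FPKM at P3.

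Supply of agonist and co-agonist was examined as well. The list for D-serine and glycine had 8 of 12 tested genes higher at P5 and a median of 0.34. Psat1, an enzyme of serine synthesis, had 57.1 FPKM at P5 and 65.7 FPKM at P3, the neutral amino acid transporter Slc1a4 had 42.5 FPKM at P5 and 24.3 FPKM at P3, and the glycine transporter Slc6a9 had 5.96 FPKM at P5 and 0.855 FPKM at P3. The list for glutamate had 5 of 7 genes higher and a median of 0.55. Of its vesicular transporters, Slc17a7, used by cortical glutamatergic terminals, had 2.68 FPKM at P5 and 0.181 FPKM at P3. Slc17a6, singled out after its values were seen, was higher at both ages, at 10.2 FPKM at P5 and 7.18 FPKM at P3. The neuronal uptake carrier Slc1a1 had 13.4 FPKM at P5 and 8.41 FPKM at P3. The other genes named, the glial transporter Slc1a3 (758 FPKM at P5, 1088 FPKM at P3) and glutamine synthetase Glul (48.0 FPKM at P5, 32.7 FPKM at P3), are known from astrocytes.

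Regulators tied to subunit gene expression were the list with a median below 0 among these 7, at -0.57, with 5 of 17 tested genes higher and 12 lower at P5. Mef2c, an activity-regulated factor, had 226 FPKM at P5 and 156 FPKM at P3, and Sp3, a binder of the GC box printed above, had 23.5 FPKM at P5 and 41.3 FPKM at P3. The Polycomb gene Eed had 10.2 FPKM at P5 and 27.6 FPKM at P3, and the neurogenic factor Neurod2 had 11.9 FPKM at P5 and 25.2 FPKM at P3. Rest, a repressor of Grin2b, was singled out after its values were seen, at 1.53 FPKM at P5 and 3.86 FPKM at P3, a log2 ratio of -1.34 (p = 0.34 in the authors' deposited table). Tbr1, which activates Grin2b with Cask, was singled out in the same way and had 10.2 FPKM at P5 and 16.9 FPKM at P3.

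**Figure D4:**
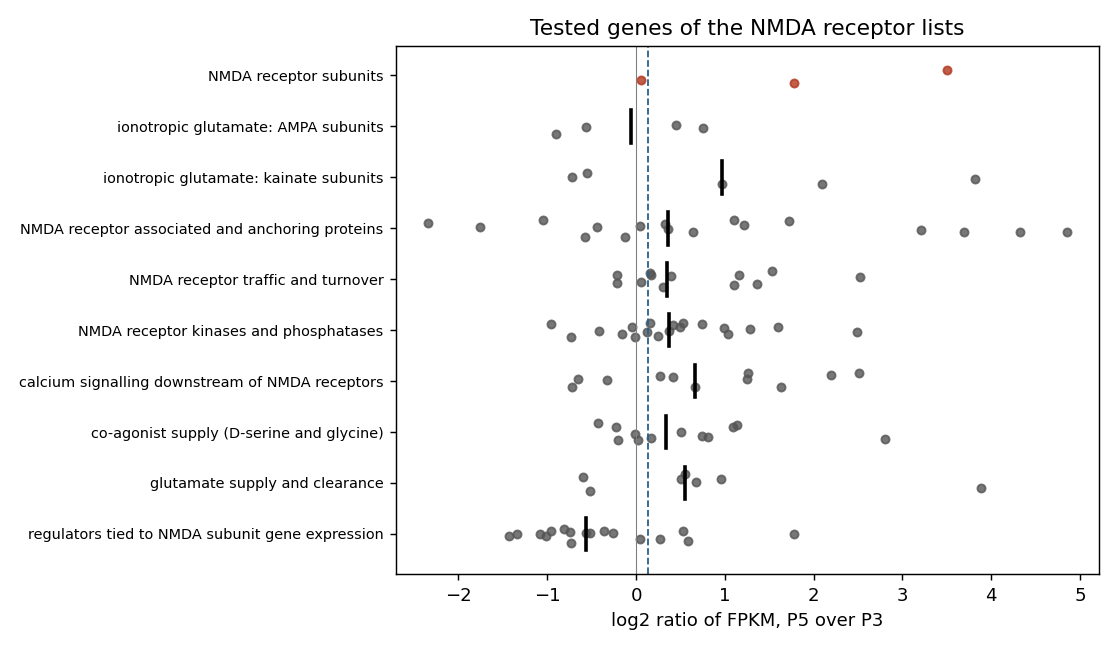
Log2 ratio of FPKM, P5 over P3, for each tested gene of the NMDA receptor subunits and of the 9 lists around them; points are genes, spread vertically only for legibility, black bars are list medians, and the dashed line is the median of 0.13 over all tested genes. The 3 tested subunit genes have ratios of 0.05, 1.78 and 3.50, and regulators of subunit expression have a median of -0.57.

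The genes nearest to Grin2b in level at both ages, by Euclidean distance on log2 FPKM over 2 ages among 12310 tested genes, were Zfp266 (distance 0.037, 117 FPKM at P5 and 111 FPKM at P3), Mir1a-2 (distance 0.044, 116 FPKM at P5 and 113 FPKM at P3) and Pja1 (distance 0.051, 113 FPKM at P5 and 114 FPKM at P3). With 2 pooled values a gene, this likeness covers level only, and the SEs of the log2 ratios of Zfp266 (5.68) and Mir1a-2 (17.0) were far wider than that of Grin2b. No other subunit gene reached 1 FPKM at both ages.

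Pooled FPKM of several sets of cell type markers also differed between the ages. None of the tested markers passed the authors' Cuffdiff test at q = 0.05, against 0% of all 12865 genes tested. In bulk RNA, fewer cells of a type and less RNA per cell cannot be told apart. Of the pan-neuronal markers 5 of 5 had higher FPKM at P5, while Map2, also chosen for that list, was not found. The 5 summed to 1093 FPKM at P5 and 463 FPKM at P3. Stmn2 alone had 758 FPKM at P5 and 332 FPKM at P3. Their median log2 ratio was 1.19, and relative to that median the log2 ratio of Grin2b was -1.14 in place of 0.05. Upper-layer markers, 8 of 8 detected, summed to 476 FPKM at P5 and 471 FPKM at P3. Interneuron markers, the cortical cells known for Grin2d, summed to 499 FPKM at P5 and 243 FPKM at P3, with 4 of 7 tested higher, or to 47.4 FPKM at P5 and 57.9 FPKM at P3 without Npy and Sst. Sums without single genes were chosen after the values were seen. Deep-layer markers, 6 of 7 higher, summed to 102 FPKM at P5 and 43.2 FPKM at P3, or to 51.05 FPKM at P5 and 37.7 FPKM at P3 without Rprm. Progenitor markers, 1 of 8 higher, summed to 143 FPKM at P5 and 201 FPKM at P3. Oligodendrocyte lineage markers, 8 of 8 higher, summed to 257 FPKM at P5 and 124 FPKM at P3, and astrocyte markers, 7 of 8 higher, to 3004 FPKM at P5 and 2375 FPKM at P3. The median level of astrocyte markers was 298 FPKM at P5 and 45.9 FPKM at P3. That of pan-neuronal markers was lower at both ages, at 129 FPKM at P5 and 36.5 FPKM at P3. Microglial markers, 7 of 7 tested higher, summed to 95.7 FPKM at P5 and 15.0 FPKM at P3, with Itgam listed at 0 at P3. Endothelial and mural markers were higher at P5 in 6 of 8, with a median log2 ratio of 2.73 and Tie1 listed at 0 at P3; they summed to 947 FPKM at P5 and 915 FPKM at P3, or to 42.2 FPKM at P5 and 4.55 FPKM at P3 without Rgs5. Rgs5 alone had 905 FPKM at P5 and 911 FPKM at P3. Some markers of cells other than neurons were thus high at both ages, so the subunit levels are those of the sorted libraries. The part of these cells in the values of Grin3a, Grin1 and the other subunit genes was not tested.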

How the data were processed

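RNA sequencing of 6 samples, 3 at P5 and 3 at P3, was analysed from 1 table. Per the submitters' processing notes the tools were TopHat and Cuffdiff 2.02 and the build was mm9, while annotation, strandedness and read numbers are not given in the sources used. The authors deposited FPKM as 1 pooled value per age, with p-values and q-values. The deposited log2 ratio and test statistic were handled as scores, because they hold a placeholder where 1 age is 0. Depth per sample is unknown, and 0 columns of per-sample values were left aside.

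Log2 ratios were recomputed from FPKM in Python 3.11.15 with pandas 2.3.3. In 12313 tested genes the p-value matched a two-sided normal test of the statistic to within 2.8e-06, so an SE was taken as ratio over statistic and 95% intervals as 1.96 SE. Among the 1232 most abundant tested genes the median SE was 0.98. Calls are those of Cuffdiff at q = 0.05. The scripts were tested on simulated data. Members, lists and tests were chosen with earlier results of these data known. Named genes were all subunits, the 2 most abundant and the 2 with the lowest p of each list (those reaching 1 FPKM), and the 3 nearest in level to subunits with 1 FPKM at both ages. Loci are mm9, counted from 1. Some genes and 1 list under these rules are left out. Replicates are called biological in the labels.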

Additional observations from a re-analysis of the deposited data

How the results depend on the processing

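The count of subunit genes called, 0, was the same with an unadjusted p of 0.05 and with q adjusted over the 11752 tested genes of at least 1 FPKM at either age. Of 56 alternative values for 29 results, 47 kept their direction and moved little. Little means less than 1 SE for log2 ratios of genes and 1.5 times at most for shares. For list medians it means 1.5 times at most after the log2 values are turned back into folds. Within these wide SEs the ratio of Grin3a, 3.50, became 1.71 with a pseudocount of 1 FPKM and 2.31 centred on pan-neuronal genes, and that of Grin1, 1.78, became 1.04 and 0.59. Centred on the median of pan-neuronal genes, the log2 ratios of Grin2a, Grin2b and Grin3b changed sign, to -0.78, -1.14 and -0.51, and that of Grin2b was -0.079 when centred on the median of all tested genes, 0.13. The Grin2a share of Grin2a plus Grin2b was 0.982% at P5 and 0.985% at P3 with a pseudocount of 1 FPKM, and 0.214% at P5 and 0.189% at P3 with 0.1 FPKM, a move that the added constant itself makes when Grin2a is far below it. The median log2 ratio of kainate subunit genes was 0.21 without the member that stayed under 1 FPKM, against 0.97; this setting leaves out 1 gene. No paired analysis was possible because the table holds 1 pooled value per age, and for the same reason replicates could not be left out in turn. Depth is unknown, so a level near 0 has no limit of detection.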
